A study of Mus musculus with 9 samples.

Results

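The change that all lung allografts shared against sham-operated lungs at day 21 after surgery was described across all genes. The graft arm held the 6 arrays labelled as allografts, 3 of them graded as obliterative bronchiolitis (OB) and 3 as non-OB, and the control arm held the 3 arrays labelled as sham, so that all 9 arrays of the series were used. Each array measured a specimen of the left lung of 1 mouse, the rest of which went to pathology. All mice were male. For the grafts, the left lung of a C57BL/10 donor was placed in the chest of a C57BL/6 recipient, with mice 8 to 12 weeks of age as donors and recipients. The strains carry the same major histocompatibility haplotype, H2b, and differ in minor histocompatibility antigens. Sham mice had their chest opened and received no graft. According to the labels all 9 arrays, sham included, had a donor of strain C57BL/10 and a recipient of strain C57BL/6. A figure of the study names the sham lungs otherwise, the first as C57BL/10 and the other two as C57BL/6. Only grafts with a histological diagnosis were arrayed, and a graft holds cells of both donor and recipient. As the sham operation was a thoracotomy alone, transplantation surgery and the response to foreign tissue cannot be told apart in this contrast.

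OB is the scarring closure of small airways by which a transplanted lung is lost in chronic rejection. T cells of the recipient recognise donor peptides on MHC molecules, and activated T cells and natural killer cells release interferon gamma. Interferon gamma raises MHC molecules, immunoproteasome subunits, guanylate-binding proteins and the chemokines Cxcl9 and Cxcl10, which draw more T cells through the receptor Cxcr3. Airway epithelium, capillary endothelium and smooth muscle are the lung's own tissues that this response meets.

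The arrays were 1-colour Agilent arrays, whose spots glow more brightly the more of a transcript the lung RNA contained. Values below are log2 intensities after each array was scaled by 1 factor to a trimmed mean of 2500, 1 log2 unit being a doubling. They rank a gene between arrays and not between genes, since each probe binds with its own strength. Between 58.6% and 69.6% of the spots of an array were well above background, a flag set by the scanner software, and no spot was saturated. Lung identity was plain on all 9 arrays. *Sftpc*, a surfactant protein of alveolar type 2 cells, lay between 18.47 and 18.99 on the grafts and at 18.65, 18.44 and 18.62 on sham 1, 2 and 3, the order in which sham values are given throughout. The ribosomal protein gene *Rplp0* lay between 16.28 and 16.66 on the grafts and at 16.27, 16.43 and 16.30 on the sham arrays, and none of 20 ribosomal protein genes was called. There were 4 slides, of which slide 1 alone carried both arms (OB 1 and non-OB 1 beside sham 1 and sham 2), slides 2 and 3 carried grafts only, and slide 4 carried sham 3.

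A transcript was called when the mean of the 6 grafts and the mean of the 3 sham lungs differed at least 2-fold with an adjusted p under 0.05 (limma, Benjamini-Hochberg over 56601 probes). Of 22909 genes, each taken by the probe with the highest mean signal, 981 were called higher in the grafts (4.28%) and 900 lower (3.93%). Over all probes 1849 were called higher (3.27%) and 1438 lower (2.54%). The rises were the larger changes. Among the called genes 367 rises and 161 falls were at least 4-fold, 34 rises and 21 falls were at least 16-fold, and the median was 1.78 on the log2 scale for the rises and -1.39 for the falls. All 6 grafts lay above all 3 sham lungs in 972 of the 981 and below them in 879 of the 900, against 12.8% and 16.1% of all genes. The specimens hold many cell types, and fewer cells of a type and less RNA per cell cannot be told apart.

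**Figure D1:**
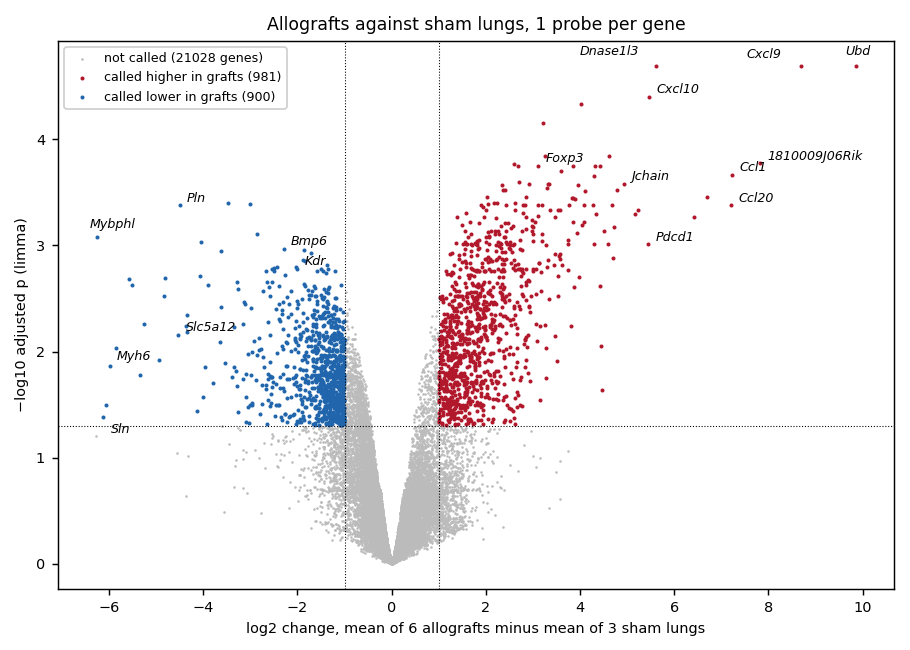
Log2 change between the mean of 6 allografts and the mean of 3 sham lungs (horizontal axis) against −log10 of the limma adjusted p (vertical axis), 1 point per gene. Dotted lines mark 2-fold changes and an adjusted p of 0.05, red points the 981 genes called higher and blue points the 900 called lower. *Ubd* and *Cxcl9* stand farthest to the right, and the falls past -4 include the heart muscle genes *Sln*, *Myh6*, *Mybphl* and *Pln*.

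Slide and arm were partly confounded. With slide as a block the contrast rests on the 4 arrays of slide 1, and 427 of the 981 higher and 118 of the 900 lower genes were still called. The sham arrays weighed most on the falls. Probes called lower numbered 811 without sham 1, 498 without sham 2 and 691 without sham 3, and probes called higher 1170, 1105 and 1467. Against sham 1 alone, the lung of the donor strain by the study's figure, 953 of the higher and 739 of the lower genes still differed at least 2-fold the same way, which the choice of called genes makes likely. Of the called genes 16 higher and 64 lower had another probe whose difference was of the opposite sign.

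The 2 largest rises, of *Ubd* and *Cxcl9*, were in genes that interferon gamma induces. *Ubd*, a ubiquitin-like modifier that marks proteins for the proteasome, lay between 11.79 and 13.05 on the grafts (median 12.05) and at 2.12, 2.03 and 3.13 on the sham arrays. It was well above background on every graft and on no sham array, and rose at least 304-fold (limma adjusted p = 2.02e-05). *Cxcl9* lay between 12.68 and 14.10 on the grafts (median 13.76) and at 4.96, 4.74 and 4.88 on the sham arrays, where it was also well above background. The gap between the lowest graft and the highest sham lung was far wider than the spread within either arm, and the rise was 411-fold, or 8.68 on the log2 scale (SE 0.35, limma adjusted p = 2.02e-05). *Cxcl10*, the other main Cxcr3 ligand, lay between 12.79 and 13.70 on the grafts (median 13.46) and at 7.67, 7.84 and 8.06 on the sham arrays, a rise of 44.1-fold (limma adjusted p = 3.95e-05). All 3 kept their call with slide as a block (limma adjusted p of 0.0227, 0.0227 and 0.0249).

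Promoter sequences are printed for genes of this response. They span 250 bases before to 50 after the start of the gene in RefSeq's annotation of GRCm38.p6 and are written 5′ to 3′ on the gene's own strand. Capitals mark 2 short motifs. The core of the interferon-stimulated response element (ISRE), bound by factors of the interferon response, was searched as GAAANNGAAA and its reverse complement TTTCNNTTTC. The core of the gamma-activated sequence (GAS), an element of the interferon gamma response, was searched as TTCNNNGAA, which reads the same on both strands. *Ubd* and *Cxcl9* are shown as the 2 largest rises and held neither motif in this window. *Cxcl10*, *Gbp5*, *Igtp* and *Isg15* are shown because they held matches, in *Isg15* 3 that overlap.
Ubd, chr17:37193642-37193941, plus strand: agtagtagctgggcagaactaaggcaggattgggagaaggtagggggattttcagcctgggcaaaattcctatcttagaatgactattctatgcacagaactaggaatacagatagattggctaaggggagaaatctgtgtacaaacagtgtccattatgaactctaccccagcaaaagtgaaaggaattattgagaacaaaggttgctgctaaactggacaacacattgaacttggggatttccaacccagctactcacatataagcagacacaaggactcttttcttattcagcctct
Cxcl9, chr5:92328030-92328329, minus strand: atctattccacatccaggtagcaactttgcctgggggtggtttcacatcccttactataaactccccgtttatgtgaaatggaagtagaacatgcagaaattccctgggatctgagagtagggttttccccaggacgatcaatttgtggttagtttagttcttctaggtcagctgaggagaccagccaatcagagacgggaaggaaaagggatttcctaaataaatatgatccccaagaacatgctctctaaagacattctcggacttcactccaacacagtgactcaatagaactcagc
Cxcl10, chr5:92348840-92349139, minus strand: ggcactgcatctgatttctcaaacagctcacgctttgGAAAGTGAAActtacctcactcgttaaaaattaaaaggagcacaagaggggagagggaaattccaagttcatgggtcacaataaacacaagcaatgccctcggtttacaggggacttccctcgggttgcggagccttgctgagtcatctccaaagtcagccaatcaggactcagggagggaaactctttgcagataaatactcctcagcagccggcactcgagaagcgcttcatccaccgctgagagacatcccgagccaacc
Gbp5, chr3:142496684-142496983, plus strand: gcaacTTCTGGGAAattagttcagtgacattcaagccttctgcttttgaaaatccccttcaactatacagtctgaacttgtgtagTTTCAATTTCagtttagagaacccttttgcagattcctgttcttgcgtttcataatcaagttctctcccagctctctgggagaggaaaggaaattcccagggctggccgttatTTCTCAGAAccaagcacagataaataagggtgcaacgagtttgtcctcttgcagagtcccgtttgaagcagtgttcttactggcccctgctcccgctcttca
Igtp, chr11:58199306-58199605, plus strand: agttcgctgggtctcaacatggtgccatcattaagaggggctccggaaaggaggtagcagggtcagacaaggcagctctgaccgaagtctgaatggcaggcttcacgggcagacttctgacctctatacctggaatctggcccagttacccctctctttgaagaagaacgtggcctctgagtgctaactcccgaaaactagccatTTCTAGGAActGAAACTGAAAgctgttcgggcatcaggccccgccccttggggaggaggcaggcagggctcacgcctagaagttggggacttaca
Isg15, chr4:156200769-156201068, minus strand: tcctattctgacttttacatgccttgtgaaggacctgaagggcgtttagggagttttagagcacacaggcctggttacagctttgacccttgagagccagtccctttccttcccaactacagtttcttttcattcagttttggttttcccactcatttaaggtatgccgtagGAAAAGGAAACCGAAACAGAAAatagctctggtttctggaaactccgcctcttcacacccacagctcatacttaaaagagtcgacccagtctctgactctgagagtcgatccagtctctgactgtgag

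The ISRE core was commoner among the risers as a group. It was found in the promoter of 77 of the 741 genes called higher that had a sequence (10.4%, 95% Wilson interval 8.39% to 12.8%, which covers counting error only) and of 30 of the 280 that rose at least 4-fold (10.7%). Among genes called lower it was found in 21 of 691 (3.04%), among all measured genes in 3.41%, and among all 27025 genes with a promoter sequence in 3.49%. The GAS core was found in 10.1% of the higher genes, 5.93% of the lower genes, 8.12% of all measured genes and 8.47% of all genes with a sequence. Of the interferon gamma list, 9 of 12 promoters held the ISRE core and 7 the GAS core, and of the type I interferon list 9 of 16 held the ISRE core and 2 the GAS core. A match is a string of letters in this window and not a measured binding site.

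Of 21 interferon gamma-induced genes measured, 20 rose (4.28% of all genes did), with a list median of 1.82 on the log2 scale against -0.03 over all genes. *Gbp5*, a guanylate-binding protein that takes part in defence inside the cell, lay between 11.16 and 12.18 on the grafts (median 12.08) and at 8.99, 9.17 and 9.13 on the sham arrays and rose 6.92-fold (limma adjusted p = 4.94e-04). *Igtp*, an interferon-inducible GTPase, rose 6.16-fold from sham values of 11.72, 12.07 and 12.04. For both genes the lowest graft lay above the highest sham lung. *Gbp2* rose 3.73-fold and the GTPase *Irgm1* 3.62-fold. *Ido1*, which breaks down tryptophan, rose 4.96-fold and *Nos2*, the inducible nitric oxide synthase, 2.4-fold (limma adjusted p of 0.00545 and 0.00729), both without a call when slide was a block. The member not called was the transcription factor *Irf1*, at 14.48 to 14.88 on the grafts and 14.21, 14.01 and 14.11 on the sham arrays, a difference of 0.58 on the log2 scale (limma adjusted p = 0.0443) that stayed under 2-fold.

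Of 20 type I interferon-induced genes measured, 12 rose and none fell, with a list median of 1.33. *Oas3*, a sensor of double-stranded RNA, rose 6.17-fold, *Irf7*, the factor that amplifies type I interferon, 4.18-fold and *Isg15*, a ubiquitin-like modifier, 3.09-fold. *Isg15* lay at 11.98, 12.03 and 12.01 on the sham arrays and between 13.17 and 14.08 on the grafts (limma adjusted p = 0.00351). *Ifit1*, which binds foreign RNA, rose 2.54-fold (limma adjusted p = 0.0047). *Rsad2*, the antiviral protein viperin, differed by 0.64 on the log2 scale (SE 0.19, limma adjusted p = 0.0796) and was not called. Under the slide block 4 of the 12 kept their call, against 11 of the 20 of the interferon gamma list.

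**Figure D2:**
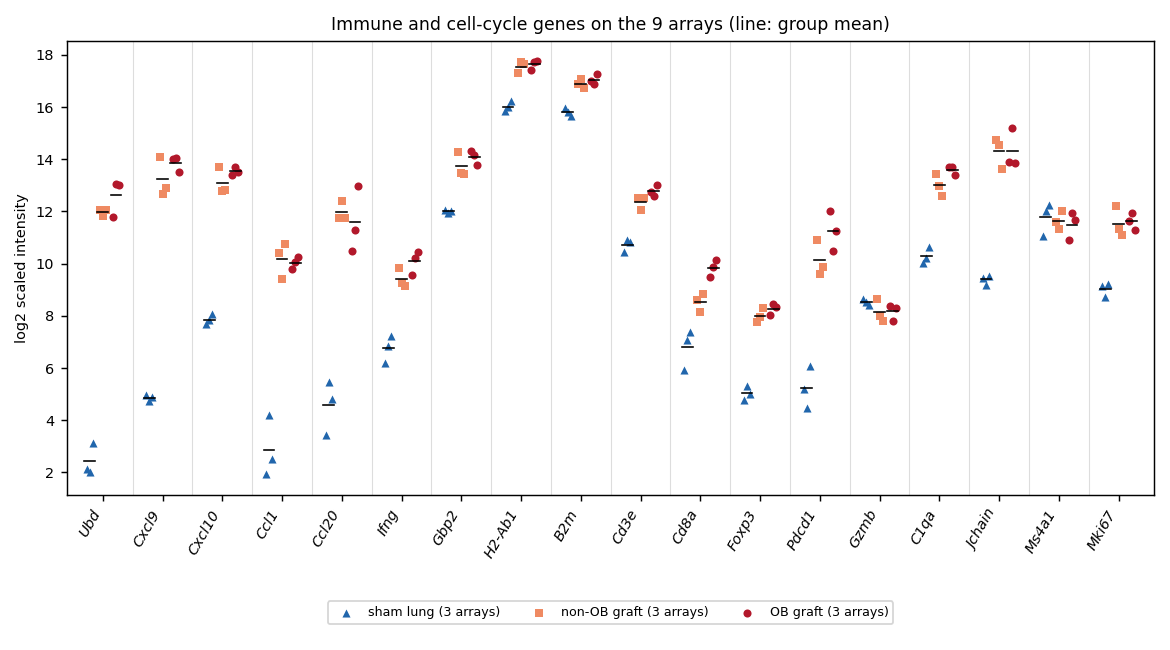
Log2 scaled intensity (vertical axis) of immune and cell-cycle genes on each array, with sham lungs as blue triangles, non-OB grafts as orange squares, OB grafts as red circles and a line at each group's mean. Both kinds of graft lie above the sham lungs for *Cxcl9* (12.68 to 14.10 against 4.74 to 4.96) and most other genes shown, while *Gzmb* and the B cell gene *Ms4a1* overlap between the arms.

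Of 35 chemokine ligands measured, 19 rose and 3 fell, with a list median of 1.58, or 1.36 with genes that had only a bound set to it. *Ccl1*, the ligand of Ccr8, lay between 9.41 and 10.73 on the grafts (median 10.14) and at 1.93, 4.19 and 2.51 on the sham arrays, with sham 2 alone well above background. It rose (limma adjusted p = 2.14e-04), and the fitted size of 7.24 on the log2 scale rests on sham values of which 2 were not well above background. *Ccl20*, which epithelium makes to draw Ccr6 cells, lay between 10.49 and 12.96 (median 11.75) against 3.42, 5.47 and 4.82, a rise of 7.21 (SE 0.58, limma adjusted p = 4.19e-04). Its sham 1 value lay under the lowest signal well above background on that array, 4.17, so this size too rests in part on a background value. In both genes every graft lay far above every sham lung. *Ccl8*, a chemokine of monocytes and T cells, rose 36.2-fold and *Xcl1*, which draws cross-presenting dendritic cells, 11.9-fold. The T cell product *Ccl5* was already at 13.70, 14.06 and 13.84 on the sham arrays and rose 2.53-fold (limma adjusted p = 0.0428), and *Ccl3*, made by macrophages and T cells, rose 5.4-fold (limma adjusted p = 0.00939). Neither kept its call with slide as a block (limma adjusted p of 0.134 and 0.132), and 11 of the 19 rises did.

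Chemokines that shape lymphoid tissue were among those that rose. *Cxcl13*, which draws B cells into follicles, lay between 9.26 and 10.60 on the grafts and at 6.99, 6.53 and 7.26 on the sham arrays and rose 8.78-fold (limma adjusted p = 0.00148). *Ccl19*, which draws T cells through Ccr7, rose 7.21-fold from 8.61, 8.61 and 8.73. *Ccl22*, a ligand of Ccr4, was well above background on every graft and no sham array and rose at least 2.57-fold. The other Ccr7 ligand, *Ccl21a*, lay between 13.12 and 14.80 on the grafts and at 13.57, 13.48 and 13.45 on the sham arrays and was not called (limma adjusted p = 0.558). The 3 ligands that fell were *Ppbp*, a platelet chemokine (-2.30 on the log2 scale, limma adjusted p = 0.0223), *Cx3cl1* and *Cxcl14*, and none of the 3 kept its call with slide as a block.

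Chemokine receptors rose in 11 of 22 cases and fell in 1, with a list median of 1.65. *Cxcr3*, the receptor of Cxcl9 and Cxcl10, lay between 11.26 and 12.17 on the grafts (median 11.60) and at 8.24, 8.53 and 8.98 on the sham arrays, a rise of 8.65-fold (limma adjusted p = 4.17e-04). *Cxcr6*, found on resident memory T cells, rose 6.77-fold. *Xcr1*, the Xcl1 receptor of cross-presenting dendritic cells, rose at least 4.75-fold. *Ackr1*, which venules use to carry chemokines across the vessel wall, lay between 8.42 and 10.23 on the grafts against 3.61, 5.0 and 5.67 on the sham arrays and rose 25.9-fold (limma adjusted p = 0.0013). Sham 1 was not well above background for this gene, so the size rests in part on a background value. The receptor that fell was *Ackr4*, a scavenger of Ccl19 and Ccl21, from 7.46, 8.37 and 8.34 on the sham arrays to between 4.26 and 5.99 on the grafts, a log2 change of -2.99 (limma adjusted p = 0.00388). Of the 11 rises 6 kept their call with slide as a block, while *Cxcr6* and *Ackr4* did not (limma adjusted p of 0.0675 and 0.0529).

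Antigen presentation rose in both of its branches. Of 19 genes of MHC class I presentation 10 rose and none fell (list median 1.08), and of 12 genes of class II presentation 11 rose (list median 1.89). The class I heavy chain *H2-K1* lay between 17.60 and 17.78 on the grafts and at 16.38, 16.26 and 16.32 on the sham arrays. Both arms were tight and well apart, and the rise was 2.6-fold (limma adjusted p = 5.44e-04). *B2m*, the light chain of class I, rose 2.23-fold and *H2-D1* 2.37-fold. The peptide transporter *Tap1* rose 4.03-fold, the immunoproteasome subunits *Psmb8* and *Psmb9* 3.1-fold and 3.16-fold, and *Nlrc5*, the activator of class I transcription, 5.72-fold (limma adjusted p = 0.00108). All 10 class I calls held with slide as a block. The sequences of class I genes resemble each other, so their probes may share signal.

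In class II, *H2-Ab1*, a chain of the I-A molecule, lay between 17.31 and 17.75 on the grafts (median 17.67) and at 15.83, 15.99 and 16.21 on the sham arrays and rose 3.0-fold (limma adjusted p = 9.73e-04). Its partner *H2-Aa* rose 4.61-fold from 12.45, 12.72 and 13.03, and *Cd74*, the invariant chain that guards the groove, 3.81-fold from 14.98, 15.25 and 15.49. In each of the 3 genes sham 3 was the highest sham lung and sham 1 the lowest, and all grafts lay above sham 3. *Ciita*, the master activator of class II, lay between 13.46 and 14.68 on the grafts and rose 4.63-fold (limma adjusted p = 0.00355), and *Ctss*, the protease that trims Cd74, rose 5.33-fold. The member not called was *H2-Ob*, part of a B cell brake on peptide loading, at 0.86 on the log2 scale (limma adjusted p = 0.077). In the fit with slide as a block 9 of the 11 kept their call.

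Markers of T cells rose in 19 of 23 cases, with a list median of 1.85 and no fall. *Cd3e*, a chain of the T cell receptor complex, lay between 12.06 and 13.01 on the grafts (median 12.56) and at 10.43, 10.92 and 10.82 on the sham arrays and rose 3.61-fold (limma adjusted p = 0.00174). *Cd8a*, the coreceptor of cytotoxic T cells, lay between 8.14 and 10.12 (median 9.16) against 5.91, 7.09 and 7.38 and rose 5.2-fold (limma adjusted p = 0.0202). *Cd4*, the coreceptor of helper T cells and also present on some macrophages, lay between 11.33 and 11.73 against 10.84, 10.64 and 10.06 and rose 2.01-fold (limma adjusted p = 0.0157), at the edge of the 2-fold limit. *Icos*, a costimulatory receptor of activated T cells, rose 10.3-fold, the largest rise among the 23. With slide as a block 6 of the 19 kept their call, *Icos* among them and *Cd3e*, *Cd8a* and *Cd4* not, and without sham 2 the list held 14 calls.

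Genes of immune checkpoints, which restrain T cells, rose in 9 of 15 cases, with a list median of 1.97. *Pdcd1*, which encodes PD-1, lay between 9.62 and 12.02 on the grafts (median 10.71) and at 5.21, 4.47 and 6.07 on the sham arrays, a rise of 43.7-fold (log2 5.45, SE 0.55, limma adjusted p = 9.73e-04). *Tigit* and *Ctla4*, inhibitory receptors of T cells, were well above background on every graft and no sham array and rose at least 12.5-fold and at least 8.29-fold. *Lag3*, another inhibitory receptor, rose 9.67-fold and *Havcr2*, which encodes TIM-3, 3.91-fold. Both ligands of PD-1 rose as well. *Cd274* (PD-L1) lay between 10.72 and 11.25 against 9.26, 9.36 and 9.44 and rose 3.2-fold, and *Pdcd1lg2* (PD-L2) rose 5.72-fold (limma adjusted p of 7.83e-04 and 9.23e-04). Of the 9, 8 kept their call with slide as a block and all 9 without sham 2.

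Genes of regulatory T cells rose in 8 of 10 cases (list median 2.19, or 1.94 with bounds). *Foxp3*, the factor that defines these cells, lay between 7.77 and 8.46 on the grafts (median 8.15) and at 4.79, 5.30 and 5.0 on the sham arrays, and rose 8.61-fold (limma adjusted p = 1.77e-04). No graft came within 2 log2 units of a sham lung. *Il2ra*, the high-affinity interleukin-2 receptor chain, rose 4.6-fold and *Tnfrsf9* (4-1BB) 12-fold, and *Il10*, an inhibitory cytokine well above background on 4 grafts and no sham array, at least 1.67-fold. These genes are also expressed by activated T cells that are not regulatory.

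Of 14 genes of cytotoxic effectors 7 rose and 1 fell, with a list median of 1.30. *Gzmk*, a granzyme of memory CD8 T cells, ranged widely among the grafts, from 5.37 in non-OB 2 to 9.15 in OB 1 (median 8.02), and lay at 2.12, 5.23 and 1.98 on the sham arrays, of which sham 2 alone was well above background. It rose 4.47 on the log2 scale (SE 0.96, limma adjusted p = 0.023). *Fasl*, the ligand that triggers death through Fas, rose 3.07-fold and *Tbx21*, the factor of type 1 T cells, 2.43-fold. *Gzma*, which natural killer cells express strongly, ran the other way, between 11.97 and 12.70 on the grafts (median 12.54) and at 13.54, 13.75 and 13.91 on the sham arrays. All grafts lay below all sham lungs, and *Gzma* fell by 1.29 on the log2 scale (limma adjusted p = 0.00581). *Gzmb*, which activated killer cells release to kill targets, lay between 7.79 and 8.63 on the grafts and at 8.66, 8.55 and 8.42 on the sham arrays and was not called (limma adjusted p = 0.254). With slide as a block 1 of the 8 kept its call, and without sham 2 the list held 2 rises.

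Genes of natural killer cells rose in 6 of 18 cases, with a list median of 0.44. *Klrk1* (NKG2D), shared with CD8 T cells, rose 2.34-fold. *Ncr1* (NKp46), the marker closest to natural killer cells alone, lay between 4.57 and 6.28 on the grafts and at 6.41, 6.12 and 6.92 on the sham arrays, and *Klrb1c* (NK1.1) between 8.09 and 8.87 against 8.77, 8.65 and 8.82. Neither was called, with differences of -0.76 and -0.27 on the log2 scale (limma adjusted p of 0.21 and 0.353). Of the 6 rises 2 kept their call with slide as a block.

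Among 29 interleukins and cytokines 5 rose, and the list median was 0.53, or 0.26 with bounds. *Ifng*, interferon gamma itself, lay between 9.13 and 10.46 on the grafts (median 9.70) and at 6.17, 6.84 and 7.23 on the sham arrays, and rose 8.01-fold (limma adjusted p = 0.00167; with slide as a block 0.0518). *Il21*, by which follicular helper T cells act on B cells, was well above background on all grafts and no sham array and rose at least 5.06-fold, although the sign of its other probe was the opposite. *Il12b*, a chain of the cytokines that drive interferon gamma, rose 7.58-fold. *Tnf* and *Il6*, inflammatory cytokines, were not called, with log2 differences of 0.54 and 0.51 (limma adjusted p of 0.261 and 0.532). *Il2*, a growth factor of T cells, was well above background on 1 graft and not called (limma adjusted p = 0.131), with another probe of the opposite sign, and *Il17a* was well above background on non-OB 1 only. In the TNF family 8 of 19 rose, of which 2 kept their call with slide as a block, and 4 rises were called without sham 2.

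Genes of leukocyte adhesion and costimulation rose in 8 of 20 cases and fell in 1, with a list median of 1.04, or 0.78 with bounds. *Cd86*, which antigen-presenting cells show to T cells, lay between 10.24 and 10.69 on the grafts (median 10.53) and at 7.95, 7.72 and 8.08 on the sham arrays and rose 6.02-fold (limma adjusted p = 1.72e-04). *Cd70*, the ligand of Cd27, was well above background on every graft and no sham array and rose at least 4.88-fold. Among the adhesion molecules by which endothelium holds leukocytes, *Vcam1* rose 2.12-fold (limma adjusted p = 0.01), *Icam1* was not called (-0.20 on the log2 scale, limma adjusted p = 0.479) and *Icam2* fell from 16.36, 16.14 and 15.94 to between 14.25 and 15.26, a log2 change of -1.28 (limma adjusted p = 0.0209). Of the 9 calls 3 held with slide as a block, *Cd86* and *Cd70* among them, and without sham 2 the list held 5.

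Macrophage genes rose in 14 of 21 cases, with a list median of 1.98 and no fall. *C1qa*, a chain of complement C1q made by tissue macrophages, lay between 12.61 and 13.70 on the grafts (median 13.40) and at 10.04, 10.21 and 10.64 on the sham arrays and rose 8.0-fold (limma adjusted p = 6.72e-04), with *C1qb* at 8.56-fold. *Ms4a7* rose 13.7-fold, the lipid receptor *Trem2* 11.5-fold and *Gpnmb*, a glycoprotein of lipid-laden macrophages, 11.8-fold. The lysosomal marker *Cd68* rose 4.09-fold and *Adgre1* (F4/80) 3.17-fold. *Csf1r*, the growth factor receptor that all macrophages carry, lay between 14.35 and 14.98 against 14.05, 14.13 and 14.26 and was not called (limma adjusted p = 0.0507), with its other probe of the opposite sign. With slide as a block 10 of the 14 kept their call.

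Of 16 genes of resident alveolar macrophages 1 rose and 3 fell, with a list median of -0.16 that turned positive against sham 1 alone (0.11). *Fabp1*, a fatty acid carrier, fell by 3.63 on the log2 scale, from 9.99, 10.39 and 10.68 to between 5.48 and 8.12 (limma adjusted p = 0.00377). *Car4*, a carbonic anhydrase also present on lung capillaries, fell by 1.84 (limma adjusted p = 0.0117). *Marco* and *Chil3* were not called, and their grafts spread over 10.47 to 12.77 and 15.11 to 17.71. The slide block left 1 of the 3 falls and not the rise called, and without sham 2 the list held 2 falls and no rise.

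Dendritic cell genes rose in 10 of 16 cases (list median 2.06). *Flt3*, the growth factor receptor of the lineage, lay between 10.03 and 10.70 on the grafts and at 7.13, 7.63 and 7.93 on the sham arrays and rose 7.23-fold (limma adjusted p = 3.48e-04). *Clec9a*, which cross-presenting cells use to sense dead cells, rose 5.63-fold. Of 15 neutrophil genes only *Lcn2*, which inflamed epithelium also makes, rose, by 3.7-fold, without a call with slide as a block or without sham 2. *S100a8*, the most abundant neutrophil alarmin, ranged from 8.98 in OB 2 to 13.61 in non-OB 3 among the grafts and from 11.42 to 13.71 among the sham lungs, and *S100a9* spread as widely. *Prg2*, the major basic protein of eosinophils, was well above background on every graft and no sham array and rose at least 12.5-fold. It was the only gene called among 13 of mast cells, basophils and eosinophils, of which 9 had a negative difference (list median -0.46).

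Innate sensors rose in 9 of 23 cases (list median 1.00). *Casp1*, the inflammasome protease, rose 3.47-fold and *Tlr12* 5.3-fold. *Tlr2*, the receptor of bacterial lipoproteins, lay between 11.30 and 11.89 on the grafts and at 10.49, 10.71 and 10.88 on the sham arrays, with no overlap (limma adjusted p = 0.01), and its 1.99-fold difference stopped just short of the 2-fold limit. Of 19 complement genes 3 rose, *C3ar1*, the receptor of the C3a fragment, 8.74-fold. *C3* itself differed 1.76-fold (limma adjusted p = 0.0187), under the limit. In immune metabolism 9 of 18 rose. *Acod1*, which makes itaconate in activated macrophages, lay between 8.57 and 10.20 against 5.91, 4.27 and 4.18 and rose 24.1-fold, and *Kynu* of the kynurenine pathway rose 7.47-fold. *Arg1* was not called (1.72 on the log2 scale, limma adjusted p = 0.0795), its sham lungs spreading from 4.82 to 7.26. The slide block left 3 rises called among the sensors and 3 in immune metabolism.

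B cells and the plasma cells they give rise to were described by separate lists. Of 17 B cell genes 3 rose and the list median was 0.02. *Ms4a1* (CD20) had a median of 11.63 on the grafts, with the lowest at 10.90, and lay at 11.07, 12.03 and 12.23 on the sham arrays, and *Cd79a*, a chain of the B cell receptor, between 6.82 and 8.19 against 6.85, 8.06 and 8.44. The arms overlapped in both, and neither was called (limma adjusted p of 0.69 and 0.613). *Cd72*, a B cell coreceptor also found on macrophages, rose 4.55-fold. Of 10 plasma cell genes 5 rose (list median 1.21). *Jchain*, which joins antibodies into polymers, lay between 13.64 and 15.21 on the grafts (median 14.22) and at 9.45, 9.18 and 9.54 on the sham arrays, and rose 30.4-fold (log2 4.92, SE 0.34, limma adjusted p = 2.62e-04). *Mzb1*, an antibody-folding helper, rose 3.99-fold. *Sdc1* (CD138), which lung epithelium also carries, was not called (-0.40 on the log2 scale, limma adjusted p = 0.167). Without sham 2 the B cell list held 1 rise and the plasma cell list 3, and with slide as a block 1 of the 3 and 2 of the 5 kept their call. No probe named for *Ighg3* was matched, so it is not reported.

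Cell-cycle genes rose in 18 of 23 cases, with a list median of 2.01 and no fall. *Mki67*, a marker of cycling cells, lay between 11.09 and 12.21 on the grafts (median 11.47) and at 9.12, 8.70 and 9.23 on the sham arrays, a rise of 5.9-fold (limma adjusted p = 0.00115). *Top2a*, which untangles DNA, rose 6.7-fold, the kinase *Cdk1* 6.96-fold and its partner *Ccnb1* 5.28-fold. *Pcna*, the sliding clamp of replication, was not called, at 12.31 to 12.97 on the grafts against 12.59, 12.27 and 12.57 (limma adjusted p = 0.415). Which cells were cycling cannot be read from tissue of mixed cell types.

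Outside these lists, wide gaps between the arms were seen in a few more genes. *1810009J06Rik*, a trypsinogen-like gene, was well above background on all grafts and no sham array, at 8.36 to 10.91, and rose at least 52.6-fold (limma adjusted p = 1.67e-04). *Plekhs1* rose at least 71.7-fold and *Dnase1l3*, a nuclease that macrophages and dendritic cells release, at least 36-fold. *Lbhd2* rose 6.69 on the log2 scale. Across all genes 42 were well above background on all 6 grafts and on no sham lung (0.183%, and 0.152% of all probes), and 64 on all 3 sham lungs and on no graft (0.279%, and 0.269% of all probes).

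**Figure D3:**
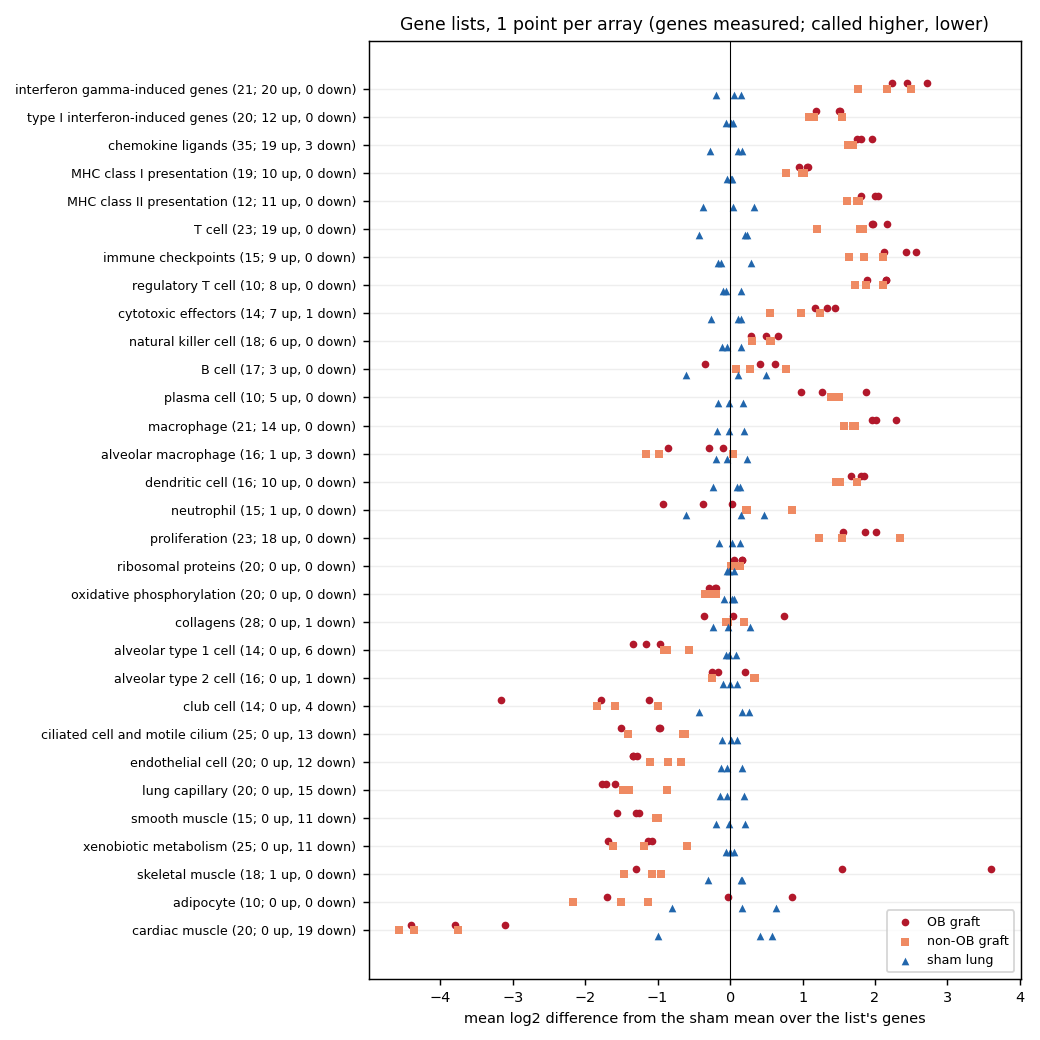
Mean log2 difference from the sham mean over the genes of each list (horizontal axis), 1 point per array, with OB grafts in red, non-OB grafts in orange and sham lungs in blue. Brackets give the genes measured and the number called higher and lower. All 6 grafts lie to the right of the sham lungs in the interferon gamma, MHC, T cell and macrophage lists and to the left in the endothelial, capillary and cardiac muscle lists, while OB 1 at 3.60 and OB 2 at 1.55 stand apart in the skeletal muscle list.

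Genes of endothelium were mostly lower in the grafts. Of 20 general endothelial genes 12 fell (3.93% of all genes did) and none rose, with a list median of -1.09, and of 20 lung capillary genes 15 fell, with a list median of -1.50. *Kdr*, the main receptor of vascular endothelial growth factor, lay between 11.98 and 13.14 on the grafts (median 12.37) and at 14.40, 14.51 and 14.42 on the sham arrays. All grafts lay below all sham lungs, and *Kdr* fell by 2.0 on the log2 scale (SE 0.23, limma adjusted p = 0.00166). *Tek*, the angiopoietin receptor, fell by 1.67, *Cdh5*, the cadherin that joins endothelial cells, by 1.24, *Cldn5*, their tight junction protein, by 1.65, and *Vwf*, the clotting factor they store, by 1.03. *Pecam1* was not called (-0.74, limma adjusted p = 0.0758).

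Among capillary genes, *Ednrb*, an endothelin receptor of the aerocytes that cover the gas-exchange surface, lay between 7.40 and 9.10 on the grafts (median 7.82) and at 10.39, 10.22 and 10.39 on the sham arrays and fell by 2.33 on the log2 scale (limma adjusted p = 0.00402). *Tmem100*, a target of BMP signals, fell by 2.38, *Hpgd*, which clears prostaglandins, by 2.22 and *Foxf1*, a factor of capillary and mesenchymal identity, by 1.63 (limma adjusted p of 0.0173, 0.0181 and 0.0289). Of the capillary calls 1 and of the endothelial calls 3 held with slide as a block, *Kdr* and *Ednrb* among them, and without sham 2 the lists held 7 and 5 calls. None of 10 lymphatic endothelial genes was called.

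Pathways that signal in vessels held falls as well. Of 29 genes of the TGF-beta and BMP pathways 8 fell and 1 rose. *Bmp6*, a ligand of endothelium, lay between 9.06 and 10.10 on the grafts and at 11.82, 11.62 and 11.80 on the sham arrays and fell by 2.29 on the log2 scale (limma adjusted p = 0.00108). The BMP receptors *Bmpr2* and *Acvrl1* fell by 1.65 and 1.33, and the Smad genes *Smad6* and *Smad9* by 2.22 and 1.93. *Bmpr2* lay between 12.76 and 13.94 against 15.06, 14.92 and 14.73, a clear gap, and *Bmp6*, *Bmpr2* and *Smad9* were the 3 of the 8 that kept their call with slide as a block. The target *Id1* was not called (-1.30, limma adjusted p = 0.0608) and neither was *Tgfb1* (0.39, limma adjusted p = 0.165). *Gdf15*, a stress-induced member of the family, rose 3.33-fold.

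In the Notch pathway 5 of 16 genes fell. The arterial ligand *Dll4* fell by 1.46 on the log2 scale, its receptor *Notch4* by 1.21 and the target *Hes1* by 1.63 (limma adjusted p of 0.00721, 0.0283 and 0.00889), none of them called with slide as a block. Of 27 vascular growth factors and receptors 9 fell and 3 rose. *Vegfa*, which alveolar type 1 cells supply to capillaries, lay between 12.02 and 13.43 against 14.16, 13.88 and 14.14 and fell by 1.28, and the receptor *Flt1* by 1.24. *Igf1*, insulin-like growth factor, rose 3.54-fold, and *Angptl1*, an angiopoietin-like protein well above background on 3 grafts, at least 1.49-fold. None of the 3 rises of this list kept its call with slide as a block, and without sham 2 the list held 1 rise. Of the Wnt genes 3 of 27 fell, *Wif1*, a secreted inhibitor, by 2.76 and *Wnt2*, a ligand of lung mesenchyme, by 1.68. Of 24 vasoactive genes 6 fell, *Npr3*, which clears natriuretic peptides, by 2.17, while *Edn1* and *Ace* were not called (-1.15 and -1.02). Inhibitors of coagulation were called in both directions. *Thbd* (thrombomodulin) fell by 1.22 and *Procr*, the receptor of protein C, rose 3.53-fold (limma adjusted p of 0.0435 and 0.0017). Of 18 coagulation genes 2 rose and 2 fell. With slide as a block 1 of the rises and none of the falls kept its call, and without sham 2 that list held 1 rise and no fall. Without sham 2 the falls called were 2 in the Notch list, 3 among vascular growth factors, none among Wnt genes and 3 among vasoactive genes, and with slide as a block none, 2, 1 and 1 of the falls kept their call.

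Smooth muscle genes fell in 11 of 15 cases, with a list median of -1.23. *Acta2*, smooth muscle actin, lay between 12.81 and 14.03 on the grafts (median 13.63) and at 14.55, 14.90 and 15.16 on the sham arrays and fell by 1.32 on the log2 scale (limma adjusted p = 0.0213). *Myh11*, its myosin, fell by 1.39 and *Cnn1* (calponin) by 2.34, the latter with grafts from 10.00 to 12.74. All grafts lay below all sham lungs in each. None of the 11 kept its call with slide as a block and 1 did without sham 2. The pericyte receptor *Pdgfrb* was not called (-0.55, limma adjusted p = 0.217).

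**Figure D4:**
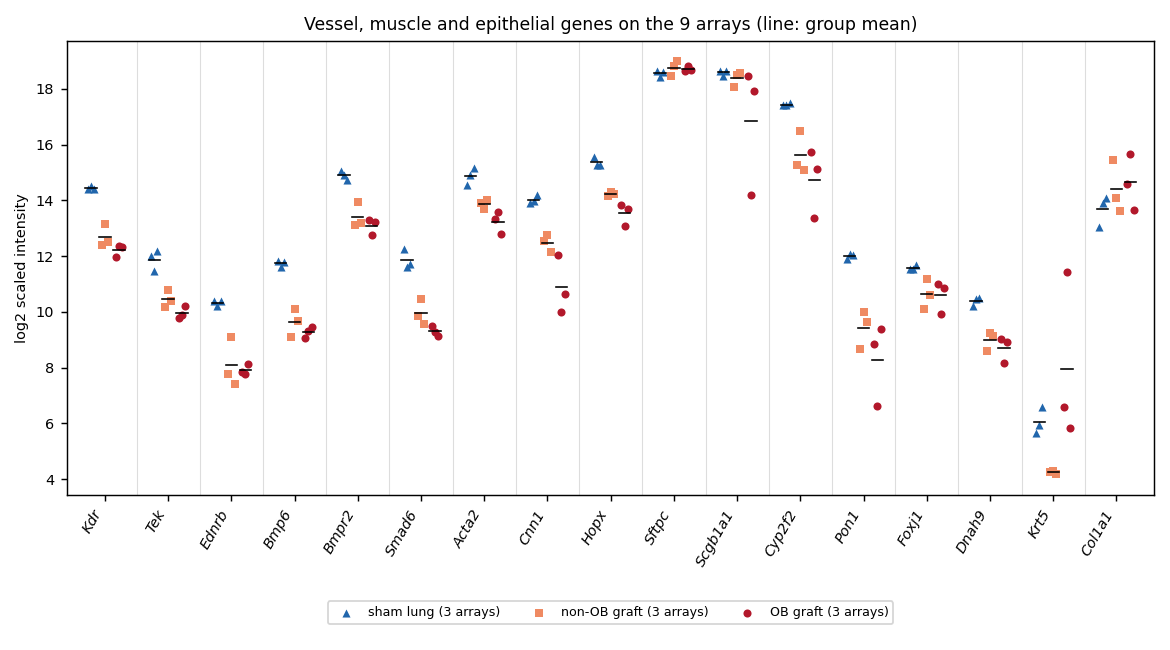
Log2 scaled intensity (vertical axis) of vessel, smooth muscle, epithelial and matrix genes on each array, with sham lungs as blue triangles, non-OB grafts as orange squares, OB grafts as red circles and a line at each group's mean. *Kdr* lies between 11.98 and 13.14 on the grafts and between 14.40 and 14.51 on the sham lungs, *Scgb1a1* drops on OB 2 alone, to 14.20, and *Krt5* is high on OB 2 alone, at 11.41.

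In the epithelium, alveolar type 2 genes were called lower in 1 of 16 cases, with a median of 0.09. Alveolar type 1 genes fell in 6 of 14 cases (median -0.98). *Hopx*, a regulator of type 1 cells, lay between 13.10 and 14.29 on the grafts and at 15.55, 15.28 and 15.26 on the sham arrays and fell by 1.48 on the log2 scale (limma adjusted p = 0.0114), and *Sec14l3* fell by 1.68. The type 1 markers *Ager* and *Aqp5* differed by -0.62 and -0.78 (limma adjusted p of 0.0441 and 0.0174), short of 2-fold. Of 25 ciliated cell genes 13 fell (median -1.16). The axonemal motors *Dnah9* and *Dnah5* fell by 1.55 and 1.40, *Dnah9* from 10.22, 10.47 and 10.50 to between 8.15 and 9.26, while *Foxj1*, the factor that starts ciliogenesis, was not called (-0.98, limma adjusted p = 0.0693). None of these calls held with slide as a block, and without sham 2 the type 1 list held 1 call and the ciliated list 2.

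Genes of club cells, the secretory cells of small airways, fell in 4 of 14 cases, with a list median of -1.56. None of the 4 kept its call with slide as a block, and the list held no call without sham 2. *Cyp2f2*, their main cytochrome, lay between 13.36 and 16.50 on the grafts (median 15.20) and at 17.40, 17.43 and 17.48 on the sham arrays and fell by 2.26 on the log2 scale (limma adjusted p = 0.039). *Pon1*, an esterase, fell by 3.16. OB 2 was the lowest graft in both. Their secretory protein *Scgb1a1* lay at 14.20 on OB 2 and between 17.91 and 18.58 on the other grafts, beside 18.65, 18.47 and 18.66 on the sham arrays, and neither it nor *Scgb3a2* was called (limma adjusted p of 0.497 and 0.11). *Krt5*, a keratin of basal cells, was at 11.41 on OB 2 and at 4.17 to 6.57 on the other grafts, against 5.65, 5.92 and 6.58 on the sham arrays. *Clca1*, a product of mucous cells, ranged from 7.60 to 14.54 on the grafts and from 2.14 to 8.98 on the sham arrays and was not called (limma adjusted p = 0.248). Xenobiotic metabolism, in which several of these enzymes also count, fell in 11 of 25 genes (median -1.14), *Cyp4b1* by 1.91, *Cyp1a1* by 1.93 and *Nqo1* by 1.61 (limma adjusted p = 0.00932). The slide block left 1 of the 11 called, and without sham 2 the list held 2. Among transport genes the water channel *Aqp1* fell by 1.33 and the anion exchanger *Slc26a4* rose 4.46-fold, while that list held no call without sham 2 and none of its calls held with slide as a block.

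Of the matrix genes, none of 28 collagens rose and 1 fell, with a median of 0.13. *Col1a1*, the main fibrillar collagen, lay between 13.61 and 15.68 on the grafts (median 14.34) and at 13.05, 13.91 and 14.08 on the sham arrays, and *Col3a1* between 14.23 and 16.16 against 13.30, 14.27 and 14.72. The arms overlapped in both, OB 2 was the highest graft in both, and neither was called (limma adjusted p of 0.311 and 0.206). *Fn1* (fibronectin), *Spp1* (osteopontin), *Timp1* and *Thbs2* were not called either, with log2 differences of 0.46, 0.36, 0.86 and 3.0. Among matrix metalloproteinases and their inhibitors 6 of 21 rose, with a list median of 0.68, or 0.31 with bounds. Without sham 2 the count was 3, and with slide as a block 2 of the 6 kept their call. *Mmp12*, the macrophage elastase, rose 11.5-fold (limma adjusted p = 0.0123) and *Mmp25*, a protease of leukocytes, at least 5.71-fold, while *Mmp2* lay at the 2-fold limit without passing the test (limma adjusted p = 0.0812). Of 20 fibroblast genes 6 fell and none rose (median -1.0). None of the 6 kept its call with slide as a block, and 2 falls were called without sham 2.

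The largest falls of the whole contrast were mostly in genes of heart muscle, which in mice also sheathes the pulmonary veins inside the lung. Of 20 cardiac genes 19 fell, with a list median of -3.93, or -3.57 with bounds, the exception being the ion channel gene *Kcnj3* (-1.52, limma adjusted p = 0.148). *Myh6*, the main cardiac myosin, lay between 6.35 and 11.30 on the grafts (median 9.80) and at 14.52, 15.61 and 15.98 on the sham arrays and fell by 5.99 on the log2 scale (SE 1.12, limma adjusted p = 0.0136). *Myl7*, the atrial light chain, fell by 5.27, *Tnnt2*, cardiac troponin T, by 4.83, *Sln* (sarcolipin) by 6.12 and *Nppa*, the atrial natriuretic peptide, by 5.51 (limma adjusted p = 0.00237). *Mybphl*, a myosin-binding protein of atria, and *Pln* (phospholamban) were well above background on all sham lungs and on no graft and fell at least 24.5-fold and at least 5.31-fold. *Csrp3*, a LIM protein of striated muscle, and *Hamp*, the iron hormone hepcidin, which heart also makes, were well above background on 1 graft and on all sham lungs, and both fell (limma adjusted p of 0.00922 and 0.00209), with log2 changes of -5.85 and -5.58 that rest on graft values mostly at background. *Actc1*, cardiac actin, changed by -2.31. The grafts spread over several log2 units in most of these genes. Outside the list, *Ckmt2*, a mitochondrial creatine kinase of striated muscle, *Myoz2*, a protein of its Z-disc, and *Casq2*, cardiac calsequestrin, changed by -6.07, -5.34 and -4.95 (limma adjusted p of 0.0319, 0.0165 and 0.012), and were well above background on 2, 1 and 1 of the grafts. *Myh13*, a myosin named for eye muscle, lay between 7.22 and 8.95 on the grafts and at 11.41, 12.49 and 12.66 on the sham arrays, and *Myh7b*, a myosin of slow muscle, changed by -4.81. *Slc5a12*, a lactate carrier, was well above background on 2 grafts and changed by -4.53 (limma adjusted p = 0.00694).

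**Figure D5:**
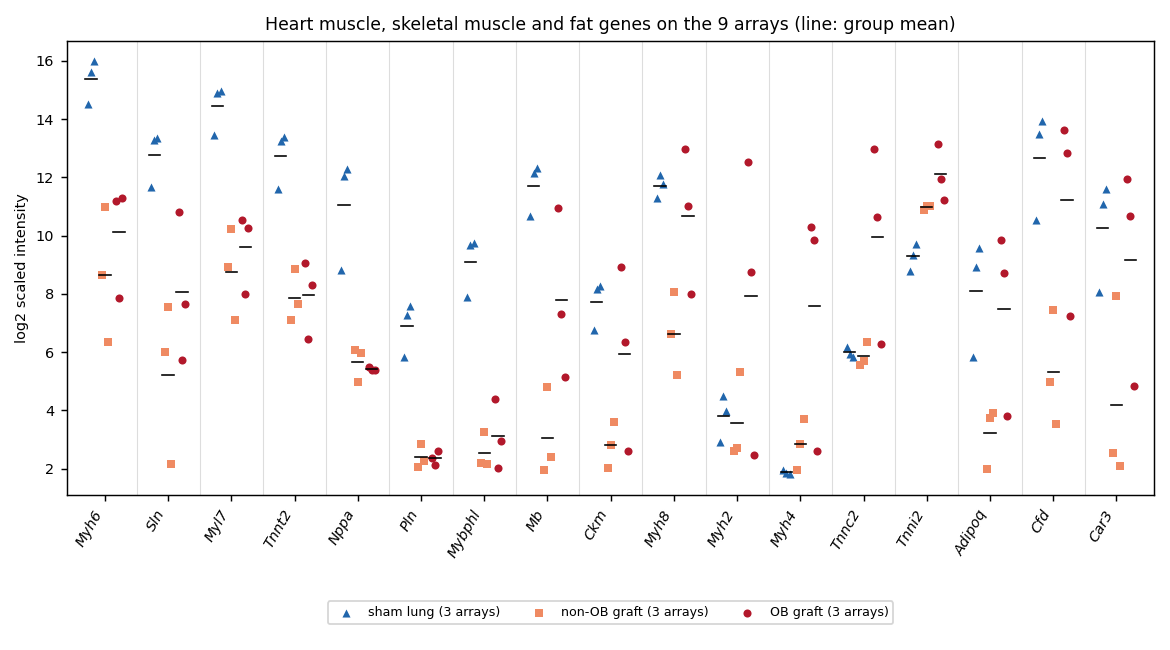
Log2 scaled intensity (vertical axis) of genes of heart muscle, skeletal muscle and fat on each array, with sham lungs as blue triangles, non-OB grafts as orange squares, OB grafts as red circles and a line at each group's mean. Heart genes such as *Myh6* are lower on every graft (6.35 to 11.30 against 14.52 to 15.98), whereas *Myh4*, *Tnnc2* and *Adipoq* are high on OB 1 and OB 2 and low on the other 4 grafts.

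Sham 1 was also the lowest sham lung for the cardiac list, with a mean 0.99 below the sham mean, while the grafts lay 3.11 to 4.58 below it. With slide as a block 4 of the 19 kept their call, *Mybphl*, *Pln* and *Myl7* among them, the list median was -3.53, and without sham 2 the list held 12 falls. How much muscle sheath, hilum or vein a specimen held is not given in the sources used here, and its part in these values was not tested.

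Skeletal muscle and fat genes marked 2 of the grafts. *Myh4*, a fast skeletal myosin, lay at 10.31 on OB 1 and 9.85 on OB 2, between 1.95 and 3.70 on the other grafts and at 1.96, 1.84 and 1.81 on the sham arrays. *Tnnc2*, fast troponin C, lay at 12.99 and 10.64 on OB 1 and OB 2 and between 5.56 and 6.36 on the other grafts. *Adipoq*, the adipocyte hormone adiponectin, lay at 9.86 and 8.72 on OB 1 and OB 2 and between 2.00 and 3.91 on the other grafts, while the sham lungs, at 5.83, 8.93 and 9.56, came close to OB 1 and OB 2. None of these genes was called (limma adjusted p of 0.297, 0.462 and 0.332), and of 18 skeletal genes only *Tnni2* rose, by 4.77-fold. The further skeletal myosins *Myh2* and *Myh8* ranged from 2.48 to 12.54 and from 5.21 to 12.98 on the grafts, with OB 1 the highest and OB 2 next, and were not called (limma adjusted p of 0.58 and 0.214). Sham lungs held *Myh8* at 11.29, 12.09 and 11.76, within the range of the grafts, and its other probe differed with the opposite sign. *Gm8032*, a predicted gene, lay between 1.99 and 8.27 on the grafts, with non-OB 2 the highest, and at 9.83, 8.27 and 8.31 on the sham arrays, and was not called (limma adjusted p = 0.0969). Over the skeletal list OB 1 lay 3.60 and OB 2 1.55 above the sham mean, and the other grafts 0.96 to 1.46 below it.

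With OB 1 and OB 2 left out together, an alternative chosen after seeing the data, 1406 probes were called higher and 930 lower. The interferon gamma list then held 17 rises, the T cell list 14, both MHC lists the same numbers as before, the capillary list 13 falls and the smooth muscle list 4. These arrays were chosen for their high levels of skeletal muscle genes, so results for skeletal muscle and fat genes without them are not reported here. Over all 6 grafts *Mb* (myoglobin) and *Ckm* (muscle creatine kinase) ranged from 1.96 to 10.93 and from 2.02 to 8.91, against 10.69, 12.14 and 12.31 and 6.76, 8.17 and 8.28 on the sham arrays. The complement factor and adipocyte product *Cfd* and the enzyme *Car3* of muscle and fat ranged from 3.53 to 13.63 and from 2.11 to 11.94. OB 1 was the highest graft in all 4, and none of the 4 was called (limma adjusted p of 0.063, 0.191, 0.228 and 0.326).

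Genes of blood, liver and basic metabolism were examined beside these tissues. *Alas2*, an enzyme of haem synthesis in red cell precursors, fell by 2.02 on the log2 scale (limma adjusted p = 0.0485), while the globin *Hbb-bt* was not called (-1.49, limma adjusted p = 0.122). Of the 10 genes listed for blood and liver 3 fell and 1 rose. With slide as a block the rise kept its call and none of the falls did, and without sham 2 the list held no fall. *Alb*, a liver product, was well above background on 1 graft and on all sham lungs and fell (limma adjusted p = 0.00951). Its log2 change of -2.05 rests on graft values mostly at background. *Serpina1a*, the antitrypsin of liver, rose 10.2-fold. None of 17 clock genes, 17 heat shock genes, 18 genes of cholesterol synthesis or 20 of oxidative phosphorylation was called, with list medians of -0.09, -0.17, -0.32 and -0.22, although the clock gene *Nr1d1* ranged from 6.77 to 10.84 among the grafts. In the oxidative stress list 6 of 25 rose and 2 fell, among the risers the cystine carrier *Slc7a11* (2.61 on the log2 scale, limma adjusted p = 0.0273). Of the 6 rises 2 kept their call with slide as a block. In the list of glycolysis and the hypoxia response 2 of 23 genes rose and 1 fell (4.28% and 3.93% of all genes did), with a list median of 0.10. Its largest rise was that of the leukocyte hexokinase *Hk3*, 6.58-fold.

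OB and non-OB grafts were then compared within the graft arm. Within the 3-group fit no probe passed an adjusted p of 0.05 for OB against non-OB (0%), and the smallest adjusted p was 0.893 (limma). At an unadjusted p under 0.05 there were 307 probes higher and 795 lower in OB, of 56601 tested. With 1 probe per gene, 159 genes were higher and 356 lower, of 22909. Among the 981 genes called higher against sham 42 differed between OB and non-OB at an unadjusted p under 0.05, and among the 900 called lower 100 did. The mean of each kind of graft lay on the same side of the sham mean for all 981 and all 900, which the choice of called genes makes likely. The difference of OB minus non-OB in *Pdcd1* was 1.12 on the log2 scale, in *Cd8a* 1.30, in *Ccl3* 1.28 and in *Kdr* -0.46, none of them called (limma adjusted p of 1.0 for each after rounding). A p that misses the threshold does not show that the groups were alike, and 3 arrays against 3 limit what can be seen.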

How the data were processed

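RNA of the left lung of 9 mice, 6 with an allograft and 3 with a sham operation, had been labelled with Cy3 and hybridised to 1-colour Agilent SurePrint G3 mouse arrays. The deposited intensity values were the processed signals of Agilent Feature Extraction 12.0.3.1, with background subtracted and spatial trends removed by the authors' software, and the authors' value table holds the same signals scaled globally. The non-control spots of each array (59305 of 62976) were scaled here to a trimmed mean of 2500 (2% at each end) by a factor between 1.24 and 2.05, which matched the authors' table to a relative difference of at most 4.99e-10, and the log2 of the deposited signal was taken. Spots marked as outliers (53 to 111 an array) were left out and spots of 1 probe averaged, which left 56601 of 56605 probes. RefSeq tables named 32991 of them, for 22909 genes, each represented by the probe with the highest mean signal.

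The groups came from the labels of the samples, and the 6 grafts were taken as 1 arm. Means were compared with the moderated test of limma 3.58.1, run under R 4.3.3 with Benjamini-Hochberg adjustment, and a call needed an adjusted p under 0.05 and a 2-fold difference. On simulated data with 200 changed probes the same fit recovered 61.5% with 8 false calls. The simulated noise was independent between arrays and held no slide effect, so these counts cannot speak to the confounding of slide and arm. One mouse was used per array, and the number of arrays limits the precision. OB against non-OB was taken from a fit with 3 group means. A gene that no array of an arm measured well above background has a bound as its change, set against the lowest signal that was. The median change of all probes was 0.11 on the log2 scale, 0.15 after 75th percentile scaling, -0.01 after quantile normalization and -0.01 after normexp background correction, and changes are to be read relative to it. Alternatives were other scalings and background corrections, a filter on dim probes, the methods' t-test, slide and replicate number as blocks, each strain of sham lung, and each array left out.

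Genes were named by rule: the 10 largest rises and falls and the 10 widest gaps each way among called genes, the first 4 genes and the largest called rise and fall of each of 62 gene lists, the 10 genes most variable among grafts, and genes the study names. Of 220 genes so considered 36 lay outside the rule and were chosen after their values were seen. Some genes that the rule took are not reported here. The groups of samples, the lists and the tests were chosen with earlier results of these data known. Of the listed genes 14 had no probe with a matched name. The figures were drawn with Matplotlib 3.10.9 and the tables made with Python 3.11.15, pandas 2.3.3, NumPy 2.4.6 and SciPy 1.17.1.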

Additional observations from a re-analysis of the deposited data

Results flagged for a closer look

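In 10 of 282 genes and lists examined, 1 of the 6 grafts stood apart from the other 5 by Dixon's test, which marks about 1 group in 20 by chance. OB 2 was the array apart in 4. It was lowest for *Scgb1a1*, at 14.20 with the next graft at 17.91, and highest for *Krt5*, at 11.41 with the next at 6.57, for *Fn1*, at 15.87 with the next at 15.24, and for *Mmp2*, at 13.25 with the next at 12.62. Non-OB 2 was the array apart in 4 more. It was lowest for *Cd70*, at 5.44 with the next graft at 6.36, for *Icos*, at 10.03 with the next at 10.64, and for the mean of the pattern recognition list, at 0.70 above the sham mean with the next at 0.89. It was highest for *Dll4*, at 8.76 with the next at 7.96. OB 1 was highest for *Casq2*, at 7.92 with the next at 5.12, and non-OB 1 for *Il17a*, at 4.87 with the next at 2.93.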

How the results depend on the processing

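The counts of 1849 probes called higher and 1438 lower moved under 1.5-fold with 75th percentile scaling, quantile normalization, the authors' value table, a filter on dim probes, an intensity trend, 3 group means, slide as a random block and the methods' t-test after Benjamini-Hochberg adjustment. Higher and lower calls were 1019 and 692 with normexp, 792 and 366 with slide as a block, 2 and 0 within slide 1, 579 and 92 against the C57BL/10 sham alone, 1170 and 811 against the C57BL/6 shams only, 792 and 259 at a 4-fold threshold, and 981 and 900 with 1 probe per gene. The methods' t-test unadjusted gave 2797 higher and 202 for OB against non-OB, no fold threshold gave 2524 lower, and OB 1 and OB 2 left out together, chosen after seeing the data, gave 930 lower. Leaving out 1 array at a time gave 1105 (without sham 2) to 2029 higher and 498 (without sham 2) to 1609 lower, 0 for OB against non-OB, 13031 to 19941 (without sham 1) probes whose arms do not overlap against 12772 with all arrays, and 252 to 388 (without sham 1, 386 without sham 3) probes well above background in all arrays of 1 arm only against 238. Replicate numbers do not pair the samples (correlations of deviations -0.40 to 0.28), and with the replicate block 1790 and 1190 probes were called. Of 161 named genes called, 159 lost the call within slide 1 and 80 with slide as a block. Without sham 2, sham 1 or sham 3, 47, 37 and 35 lost it. Under all settings that used all 9 arrays 76 kept the call, and none of the 161 turned sign under any setting. Among genes not called, *Ms4a1* turned to 0.50, *Cd79a* to 0.59, *S100a8* to 0.45 and *S100a9* to 0.080 against the C57BL/10 sham alone, *Ms4a1* ran from -0.56 to 0.018 (without sham 3) with single arrays left out, and *Krt5* turned to -0.091 with quantile normalization, -0.37 with slide as a block and within slide 1, -0.21 with slide as a random block and ran from -1.02 (without OB 2) to 0.42 with single arrays left out. The cause of these shifts was not tested. Slide 1 alone held both arms, so the slide block rests on 4 arrays.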

Other observations

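Several further lists held few calls, to be read beside 4.28% of all genes called higher and 3.93% called lower. Of 11 mesothelial genes 1 fell, with a list median of -0.93, and all grafts lay below all sham lungs in 8, against 16.1% of all genes. Of 17 tight junction and epithelial adhesion genes 1 fell, with a list median of -0.54. All grafts lay below all sham lungs in 9 of them and above in 2, against 16.1% and 12.8% of all genes. Of 18 genes of fatty acid uptake and oxidation 3 fell, with a list median of -0.42, and all grafts lay below all sham lungs in 12. These 3 medians were negative under all 22 alternatives. Of 17 genes of Schwann cells and nerve 1 rose and 1 fell. The neutrophil list had a median of 0.06 and the B cell list 0.02. Both turned negative with slide as a block, to -0.01 and -0.09, and were 0.45 and 0.82 against the C57BL/10 sham alone.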
